A study of Homo sapiens with 6 samples.

Results

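The Wnt and beta-catenin genes described here were 10 genes chosen by name from the 62710 genes of the count table: CTNNB1, APC, AXIN2, LGR5, ASCL2, RNF43, ZNRF3, NKD1, TCF7 and TCF7L2. HCT116, from which all libraries were made, is a line of human colon cancer cells known to carry an activating CTNNB1 mutation. In the sh-IGF2BP3 group (3 libraries), a lentivirus delivered an shRNA against IGF2BP3, and in the sh-NC group (3 libraries), the negative control, it delivered a scrambled sequence. Both were stable lines selected with puromycin, and the knockdown rested on a single shRNA sequence in a single cell line. The labels do not say whether the libraries of a group came from separate cultures, so p-values measure the spread between these libraries, which may be technical. The comparison of sh-IGF2BP3 with sh-NC shows whether these genes differed after knockdown. Of the 10 genes, 8 passed the filter on low counts, LGR5 and ASCL2 did not, and 0 of the 8 passed the study's thresholds.

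Wnt signalling controls how much beta-catenin a cell holds. Without a Wnt signal, a destruction complex built around APC and AXIN proteins has beta-catenin phosphorylated and degraded. With a signal, beta-catenin accumulates, enters the nucleus and activates genes together with TCF/LEF factors, and several of the activated genes encode inhibitors of the pathway itself. In the colon this pathway keeps the stem cells of the crypt, and most colon cancers carry a lesion that leaves it switched on. IGF2BP3 is an RNA-binding protein that can stabilise its target mRNAs.

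The agent that separates the groups is shown first, since every comparison rests on it. The shRNA target sequence lies whole in the transcripts of IGF2BP3 and of AC092447.1, while no annotated gene holds the control sequence.
sh-IGF2BP3: ggctcagggaagaatttat
sh-NC: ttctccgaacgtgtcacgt

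The promoter windows of the members are shown because TCF/LEF factors, which are themselves members, bind short DNA motifs. RefSeq promoter windows (GRCh38.p14, 250 bases before to 50 bases after a start site) were at hand for 5 of the 10 members, CTNNB1, APC, RNF43, TCF7 and TCF7L2, with 10 windows in all. The full motif CTTTGAT was searched on both strands and was in 0 of the 10 windows, against 2.62% of all 35116 windows. The shorter form CTTTGA, which is part of CTTTGAT, was in 0 of the 10 windows on either strand, against 12.9% of all windows. CTTTGT, a short form that is not part of CTTTGAT, was in 4 of the 10 windows, against 16.1% of all windows. One or the other was in 4 of the 10 windows, against 26.2% of all windows. The 4 windows with CTTTGT are printed here 5′ to 3′ on the gene's strand. Capitals mark CTTTGT, read as ACAAAG where it lies on the opposite strand.
RNF43 chr17:58417485-58417784 (minus strand): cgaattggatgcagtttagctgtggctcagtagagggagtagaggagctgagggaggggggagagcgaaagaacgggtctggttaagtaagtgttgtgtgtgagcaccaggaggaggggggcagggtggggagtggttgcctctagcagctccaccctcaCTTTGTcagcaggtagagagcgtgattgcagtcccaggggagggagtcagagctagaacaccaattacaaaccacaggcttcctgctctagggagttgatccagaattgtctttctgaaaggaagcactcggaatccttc
RNF43 chr17:58402672-58402971 (minus strand): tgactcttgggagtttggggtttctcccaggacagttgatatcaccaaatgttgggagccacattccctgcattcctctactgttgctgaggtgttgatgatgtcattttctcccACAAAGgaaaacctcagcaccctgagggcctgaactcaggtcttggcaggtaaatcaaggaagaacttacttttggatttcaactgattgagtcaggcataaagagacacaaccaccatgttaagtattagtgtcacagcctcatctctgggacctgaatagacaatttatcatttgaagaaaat
TCF7 chr5:134123368-134123667 (plus strand): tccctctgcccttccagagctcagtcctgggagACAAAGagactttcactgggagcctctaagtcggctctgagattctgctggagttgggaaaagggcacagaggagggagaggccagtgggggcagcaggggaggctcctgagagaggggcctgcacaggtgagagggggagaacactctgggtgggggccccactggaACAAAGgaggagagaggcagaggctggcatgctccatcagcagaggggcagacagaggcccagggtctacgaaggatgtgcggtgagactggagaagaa
TCF7L2 chr10:113126383-113126682 (plus strand): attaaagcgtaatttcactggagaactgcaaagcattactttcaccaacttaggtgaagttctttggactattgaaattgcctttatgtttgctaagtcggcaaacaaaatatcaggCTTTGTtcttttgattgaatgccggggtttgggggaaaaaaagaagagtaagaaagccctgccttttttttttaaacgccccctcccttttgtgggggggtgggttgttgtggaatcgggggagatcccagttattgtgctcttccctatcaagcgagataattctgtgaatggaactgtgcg
The match began 90 and 135 bases before the start in the RNF43 windows, 217 and 49 bases before it in the TCF7 window, and 133 bases before it in the TCF7L2 window. These are matches of letters, and binding was not measured.

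The libraries held 16146718 to 23576469 counts on genes. Levels are given as CPM, counts scaled to a common library total by edgeR's TMM method, or as the deposited FPKM, which also divide by gene length. IGF2BP3, the target of the shRNA, was at 90.3, 84.1 and 70.3 CPM in sh-NC 1, 2 and 3 and at 60.2, 52.3 and 55.8 CPM in sh-IGF2BP3 1, 2 and 3 (log2 fold change −0.54, adjusted p = 0.126, edgeR). Of 10 colon epithelium markers, 7 had at least 1 CPM in every library, and the defining markers VIL1, CDX1 and LGALS4 had 9, 1 and 1 counts in all. The summed epithelial level was 2031 to 3704 CPM in sh-NC and 3144 to 4179 CPM in sh-IGF2BP3. KRT8 was its largest part, at 1181 to 2169 CPM in sh-NC and 1943 to 2583 CPM in sh-IGF2BP3. Of the 7 markers, EPCAM and CDH1 had log2 fold changes below 0, at −0.10 and −0.47, and the others had log2 fold changes above 0. Of the fibroblast, blood and endothelial markers, 2 of 8, 0 of 7 and 0 of 5 reached 1 CPM in every library, and COL1A2 and LUM were at 0 counts. Their summed levels were 30.1 to 51.5, 0.785 to 1.38 and 2.43 to 5.26 CPM in sh-NC, and 31.9 to 62.0, 0.572 to 1.08 and 1.44 to 4.57 CPM in sh-IGF2BP3. Levels also moved with the GC content of genes, by −0.23 to −0.05 log2 CPM per 10 percentage points in sh-NC libraries and by −0.01 to 0.35 in sh-IGF2BP3 libraries. Each member tested is therefore also given from a fit that removes the trends of each library with GC content and with gene length. In that fit IGF2BP3 itself was at a log2 fold change of −0.22 (adjusted p = 0.677, edgeR) with overlapping groups. With sh-NC 1 left out as well, a step added after seeing the data, it was −0.035. The slopes with GC content did not overlap between the groups. Removing the trends can therefore also remove a difference between the groups, and whether it did was not tested. The study reported the knockdown in HCT116 cells by qPCR and Western blotting.

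No member was called in sh-IGF2BP3 against sh-NC libraries, and in bulk RNA fewer cells that express a gene cannot be told apart from less RNA per cell. A call needed an adjusted p under 0.05 together with more than a 1.5-fold difference in edgeR's quasi-likelihood test, and 0 of 8 members met it, as did 0% of the 16753 genes tested. DESeq2 also called 0 of the 8, against 4.29% of its genes called higher and 1.05% called lower. In edgeR, again 0 members had an unadjusted p under 0.05, against 13.6% of all genes higher and 8.54% lower. With the trends removed there were 0 members as well, against 6.86% higher and 3.54% lower. TCF7 was the only member whose groups did not overlap, with every sh-IGF2BP3 library above every sh-NC library, which 13.2% of all genes showed in that direction and 11% in the other. The log2 fold change was above 0 for 3 members and below 0 for 5, with a median of −0.03 against −0.01 for all genes tested.

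**Figure D1:**
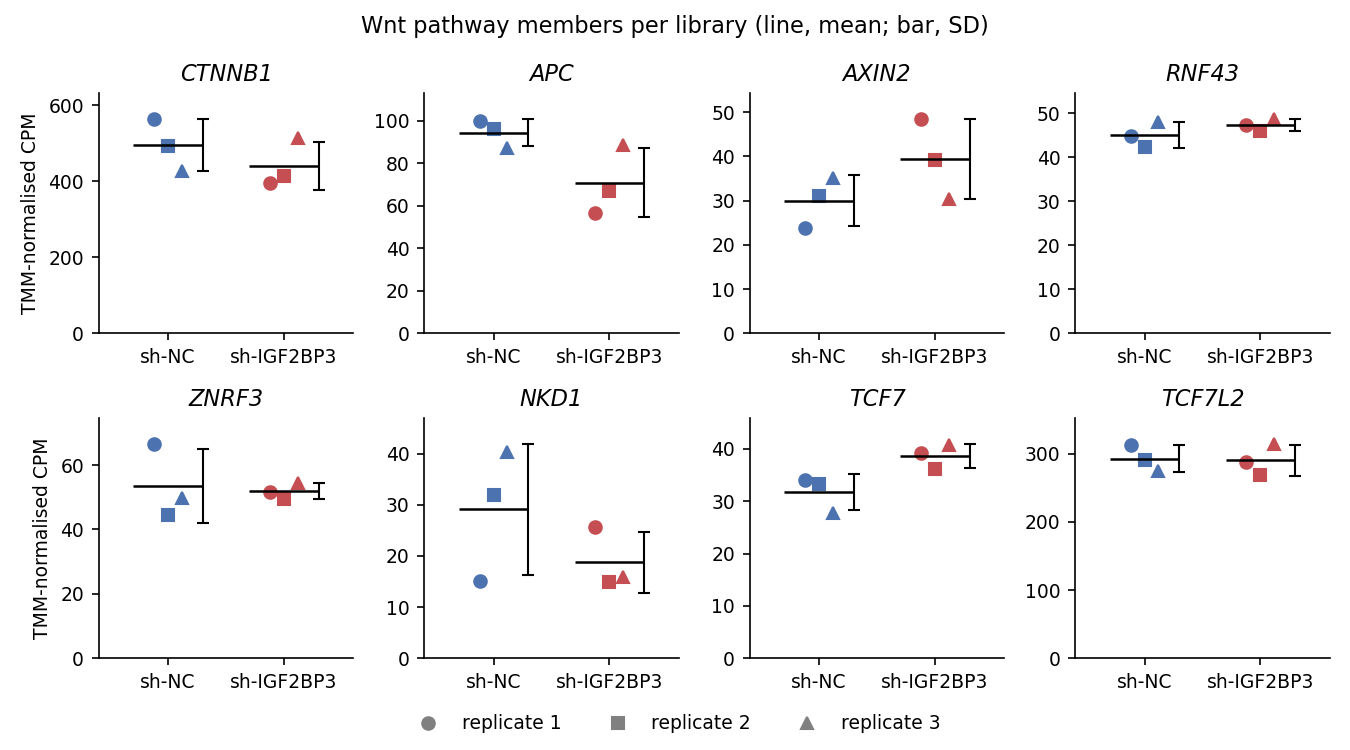
TMM-normalised CPM (vertical axis, from 0) of the 8 tested members in the 3 sh-NC and 3 sh-IGF2BP3 libraries; symbols are replicates, lines are means and bars are SD. The groups overlap in every panel except TCF7, where sh-NC lies at 27.7 to 34.1 CPM and sh-IGF2BP3 at 36.2 to 40.7 CPM.

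Per length, TCF7L2 and CTNNB1 stood highest. The mean FPKM over the 6 libraries was 43.2 for TCF7L2 and 39.7 for CTNNB1, and these neighbours did not differ beyond their spread, with 37.8 to 45.1 FPKM for TCF7L2 and 33.4 to 45.9 FPKM for CTNNB1 in single libraries. A middle group held ZNRF3 at 7.51, RNF43 at 7.29, AXIN2 at 6.68 and APC at 6.65 FPKM, and the ranges of these 4 overlapped. TCF7 at 3.47 FPKM lay below all 4 in every library, and NKD1 at 1.41 FPKM lay below TCF7 in every library. LGR5 averaged 0.0252 FPKM, and ASCL2 was listed at 0.

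**Figure D2:**
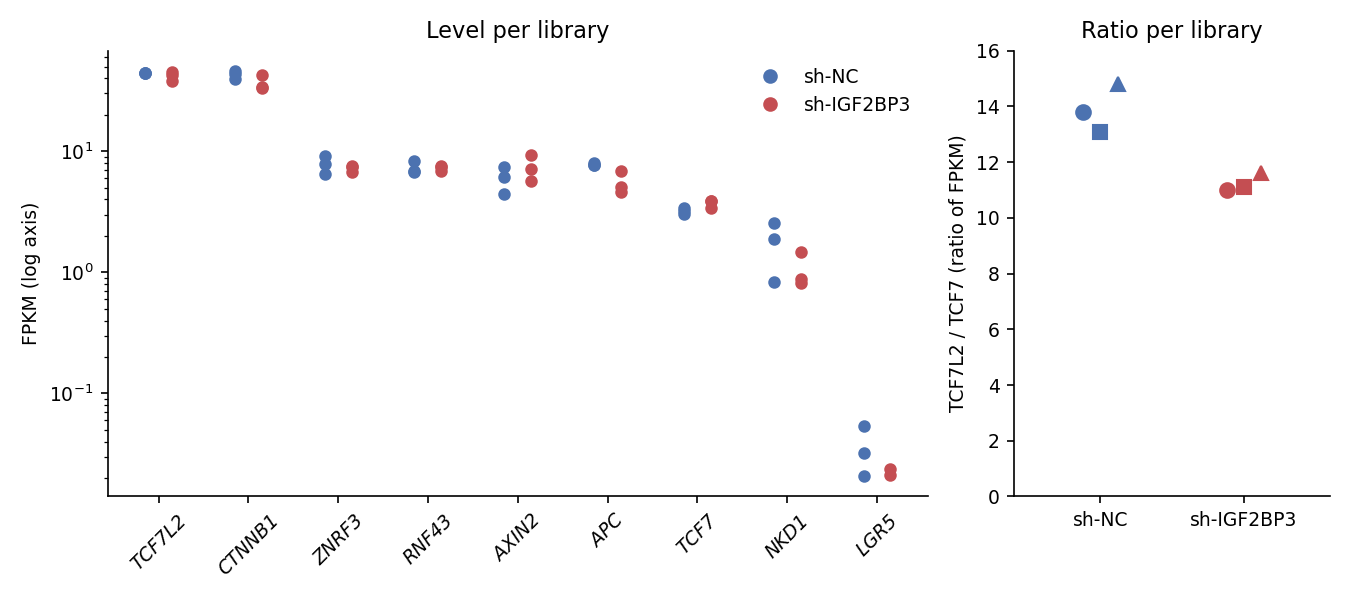
Left, FPKM per library on a log axis for the 9 members with any count, in order of their mean; ASCL2 is at 0 and is not drawn, nor is the sh-IGF2BP3 library in which LGR5 is at 0. Right, the ratio of TCF7L2 to TCF7 FPKM in each library on an axis from 0, with sh-NC at 13.1 to 14.8 and sh-IGF2BP3 at 11.0 to 11.6.

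CTNNB1 (ENSG00000168036; chromosome 3, 41194741 to 41260096, plus strand, GRCh38) encodes beta-catenin, the effector of the pathway. It was at 563, 494 and 427 CPM in sh-NC 1, 2 and 3, and at 396, 415 and 513 CPM in sh-IGF2BP3 1, 2 and 3. The ranges overlapped, with sh-IGF2BP3 1 and 2 below every sh-NC library and sh-IGF2BP3 3 above sh-NC 2 and 3. Its log2 fold change of −0.16 had a standard error of 0.195 (adjusted p = 0.642, edgeR), and with the trends removed the direction turned, to 0.11.

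APC (ENSG00000134982; chromosome 5, 112707498 to 112846239, plus strand) encodes the scaffold of the destruction complex that is most often mutated in colon cancer. It was at 99.8, 96.2 and 87.4 CPM in sh-NC 1, 2 and 3, and at 56.8, 67.0 and 88.6 CPM in sh-IGF2BP3 1, 2 and 3. The sh-NC libraries lay close together and sh-IGF2BP3 1 and 2 lay below them all, while sh-IGF2BP3 3 was inside the sh-NC range. Its group means, 94.4 ± 6.38 and 70.8 ± 16.2 CPM (SD, n = 3 libraries per group), stood in a ratio of 0.750 (p = 0.2, exact permutation, two-sided). At a log2 fold change of −0.41 with a standard error of 0.196, APC did not pass (adjusted p = 0.227, edgeR). It was −0.28 without sh-IGF2BP3 1 and −0.62 without sh-IGF2BP3 3 (unadjusted p = 0.0116, adjusted p = 0.109, edgeR). APC had the lowest GC content of the tested members, 39.6%, and with the trends removed its log2 fold change was −0.06.

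AXIN2 (ENSG00000168646; chromosome 17, 65528563 to 65561648, minus strand) encodes the second scaffold, is itself switched on by beta-catenin and is widely used as a readout of the pathway. It was at 23.8, 31.2 and 35.1 CPM in sh-NC 1, 2 and 3, and at 48.4, 39.3 and 30.5 CPM in sh-IGF2BP3 1, 2 and 3. The lowest library was sh-NC 1 and the highest sh-IGF2BP3 1, but sh-IGF2BP3 3 lay below sh-NC 2 and 3. From group means of 30.0 ± 5.70 and 39.4 ± 8.97 CPM (SD, n = 3 libraries per group), the ratio was 1.31 (p = 0.3, exact permutation, two-sided). AXIN2 had a log2 fold change of 0.39 with a standard error of 0.221 (adjusted p = 0.305, edgeR), and of 0.29 with the trends removed. It was 0.22 without sh-IGF2BP3 1 and 0.54 without sh-IGF2BP3 3 (unadjusted p = 0.0317, adjusted p = 0.164, edgeR).

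RNF43 and ZNRF3 encode membrane ubiquitin ligases that remove Frizzled receptors from the cell surface and so dampen the signal. RNF43 (ENSG00000108375; chromosome 17, 58353676 to 58417595, minus strand) was at 44.8, 42.2 and 48.0 CPM in sh-NC 1, 2 and 3, and at 47.4, 46.0 and 48.6 CPM in sh-IGF2BP3 1, 2 and 3. It was the steadiest member, with a within-group SD of 0.07 log2 CPM that was smaller in only 0.686% of all genes tested. The difference came to 0.07 on the log2 scale with a standard error of 0.177 (adjusted p = 0.832, edgeR), and to 0.10 with the trends removed. The antisense gene TSPOAP1-AS1, with 113 to 225 counts a library, overlaps RNF43. ZNRF3 (ENSG00000183579; chromosome 22, 28883572 to 29057488, plus strand) was at 66.6, 44.5 and 49.7 CPM in sh-NC 1, 2 and 3, and at 51.7, 49.5 and 54.5 CPM in sh-IGF2BP3 1, 2 and 3. The sh-IGF2BP3 libraries lay inside the sh-NC range, which sh-NC 1 stretched upwards. ZNRF3 differed by −0.05 on the log2 scale with a standard error of 0.195 (adjusted p = 0.909, edgeR), and by −0.11 with the trends removed.

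NKD1 (ENSG00000140807; chromosome 16, 50548396 to 50649249, plus strand) encodes an inhibitor of Dishevelled that beta-catenin switches on. It was at 15.1, 31.9 and 40.3 CPM in sh-NC 1, 2 and 3, and at 25.7, 14.9 and 15.8 CPM in sh-IGF2BP3 1, 2 and 3. The library sh-NC 1 lay beside sh-IGF2BP3 2 and 3, away from the other sh-NC libraries. Group means of 29.1 ± 12.8 and 18.8 ± 5.98 CPM (SD, n = 3 libraries per group) gave a ratio of 0.646 (p = 0.3, exact permutation, two-sided). On the log2 scale the fold change was −0.63 with a standard error of 0.31 (adjusted p = 0.245, edgeR), or −0.52 with the trends removed. NKD1 had the largest spread of the members, with a within-group SD of 0.60 log2 CPM that exceeded that of 88.2% of all genes tested.

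For NKD1 a single library decided the call. Without sh-NC 1 its log2 fold change was −0.93 with an adjusted p of 0.0151 (edgeR), past both thresholds, in a setting that called 5.67% of all genes lower. With the trends removed as well, a step added after seeing the data, it was −0.79 with an adjusted p of 0.0356, against 1.01% of all genes called lower. Without sh-IGF2BP3 1 it was −0.92, with an adjusted p of 0.302. Leaving out another library gave smaller changes, from −0.35 without sh-NC 3 (adjusted p = 0.636, edgeR) to −0.54 without sh-NC 2. Over all 23 alternatives its adjusted p ran from 0.0151 to 0.997, and its log2 fold change was below 0 in each. NKD1 and AXIN2, both induced by the pathway, thus had fold changes of opposite sign, and in sh-NC 1 both were at their lowest among sh-NC libraries.

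**Figure D3:**
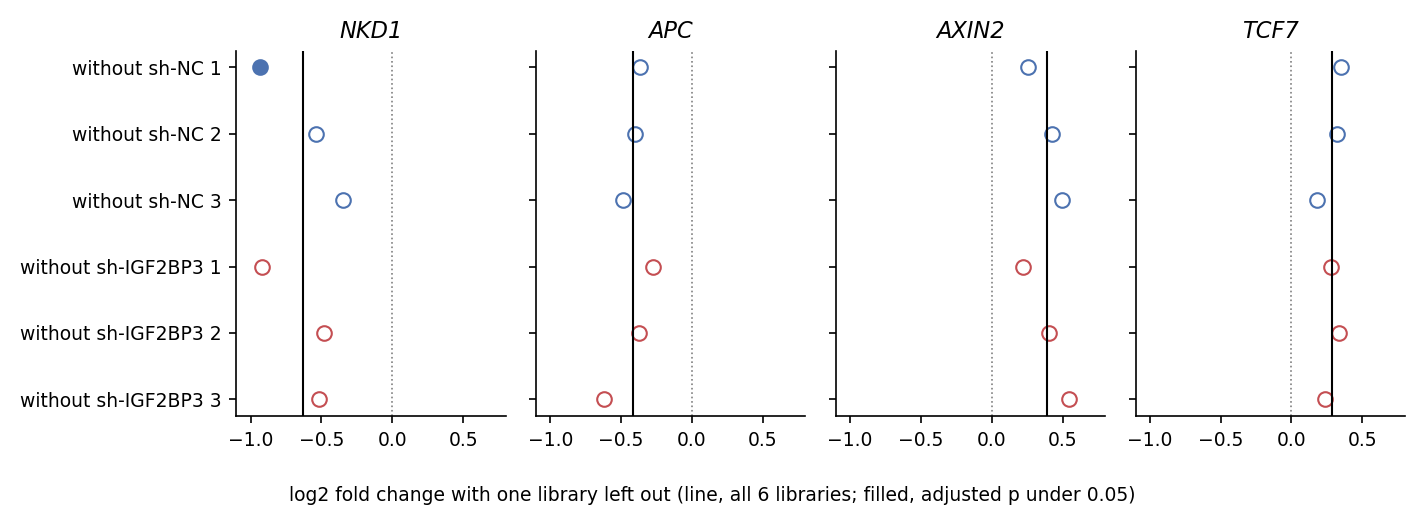
Log2 fold change (horizontal axis) of NKD1, APC, AXIN2 and TCF7 with each library left out in turn; black lines give the value from all 6 libraries, blue and red mark a left-out sh-NC or sh-IGF2BP3 library, and filled symbols have an adjusted p under 0.05. NKD1 without sh-NC 1, at −0.93, is the only filled point.

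**Figure D4:**
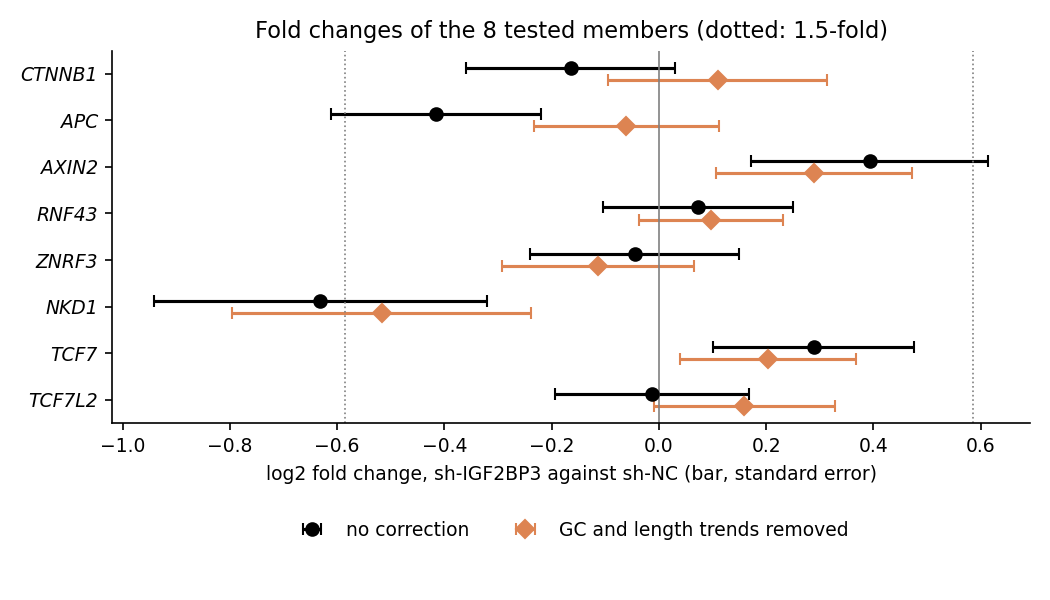
Log2 fold change, sh-IGF2BP3 against sh-NC (horizontal axis), of the 8 tested members without correction (black) and with the GC and length trends removed (orange); bars are standard errors and dotted lines mark a 1.5-fold change. APC is at −0.41 and −0.06, CTNNB1 at −0.16 and 0.11, and NKD1 at −0.63 and −0.52.

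TCF7 and TCF7L2 encode DNA-binding factors through which beta-catenin acts. TCF7 (ENSG00000081059; chromosome 5, 134114681 to 134151865, plus strand) was at 34.1, 33.2 and 27.7 CPM in sh-NC 1, 2 and 3, and at 39.2, 36.2 and 40.7 CPM in sh-IGF2BP3 1, 2 and 3. Group means of 31.7 ± 3.44 and 38.7 ± 2.25 CPM (SD, n = 3 libraries per group) gave a ratio of 1.22, and no library overlapped the other group. An exact permutation test (two-sided) gave p = 0.1, its lowest possible value with 3 libraries in each group. In edgeR the log2 fold change of 0.29 had a standard error of 0.188 and an adjusted p of 0.375. Without sh-NC 3 it was 0.18. With the trends removed it was 0.20 and the groups overlapped. The gene's end lies within the span of SKP1 on the opposite strand, which had 119 to 150 counts a library, and whether reads were assigned by strand is not given in the sources used here.

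TCF7L2 (ENSG00000148737; chromosome 10, 112950247 to 113167678, plus strand) is the main TCF factor of the colon epithelium. It was at 313, 291 and 274 CPM in sh-NC 1, 2 and 3, and at 287, 269 and 314 CPM in sh-IGF2BP3 1, 2 and 3, so that the ranges covered each other. In edgeR its log2 fold change of −0.01 had a standard error of 0.18 and an adjusted p of 0.974, and with the trends removed it was 0.16.

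The balance of TCF7L2 and TCF7 was read as the ratio of TCF7L2 to TCF7 in FPKM. A further TCF gene, TCF7L1, averaged 4.32 FPKM and was not part of this ratio. Its log2 fold change was 0.04 (adjusted p = 0.939, edgeR), and −0.42 with the trends removed, with overlapping groups in both. The sh-NC libraries 1, 2 and 3 had ratios of 13.8, 13.1 and 14.8, and the sh-IGF2BP3 libraries 1, 2 and 3 had ratios of 11.0, 11.1 and 11.6. Every sh-IGF2BP3 library lay below every sh-NC library, and the log2 ratio was 3.79 ± 0.088 in sh-NC and 3.49 ± 0.04 in sh-IGF2BP3 (SD, n = 3 libraries per group). The difference of −0.31 was larger than the spread between libraries, with the smallest p that an exact permutation test can give here, p = 0.1 (two-sided). The genes differ in GC content, 45.8% for TCF7L2 and 54.9% for TCF7, and with the trends removed their log2 fold changes were 0.16 and 0.20. The difference in the log2 ratio, taken from CPM with the trends removed, a step added after seeing the data, was −0.04 (p = 1, exact permutation, two-sided) and the groups overlapped.

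LGR5 and ASCL2 mark the stem cells of the crypt, LGR5 as a receptor for R-spondins and ASCL2 as a transcription factor. LGR5 (ENSG00000139292; chromosome 12, 71439798 to 71586310, plus strand) had 2, 4 and 5 counts in sh-NC 1, 2 and 3 and 0, 2 and 2 counts in sh-IGF2BP3 1, 2 and 3. ASCL2 (ENSG00000183734; chromosome 11, 2268498 to 2270588, minus strand) had 0 counts in each library. A count of 0 allows up to 3 counts, or 0.124 to 0.196 CPM depending on the library, for counting error only. At this depth a fall in either gene was not detectable, and no sh-IGF2BP3 library held more than 2 counts of either.

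Over the 6 libraries, the genes of the pathway lists and members nearest to AXIN2 in their deviations from the mean were FZD2, CBY1 and TLE2. Their root mean square difference from AXIN2 was 0.09, 0.10 and 0.12 log2 CPM, among 116 genes compared. For TCF7L2 they were CTNNA1 at 0.07, RNF43 at 0.11 and CTNNB1 at 0.12 log2 CPM. These are descriptions with the GC trends kept, and those trends differed between the libraries. ASCL2, with 0 counts, could not be compared.

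The rest of the pathway was read from 7 lists with 135 genes, of which 109 could be tested. By edgeR 0 of them were called. In sh-IGF2BP3 libraries, 19 genes (17.4%) were higher and 11 (10.1%) lower at an unadjusted p under 0.05, against 13.6% and 8.54% of all genes tested, with a median log2 fold change of 0.14. With the trends removed there were 8 higher (7.34%) and 8 lower (7.34%), against 6.86% and 3.54% of all genes, and the median was −0.01. DESeq2 called 6 of 93 higher (6.45%) and 1 lower (1.08%), against 4.29% and 1.05% of all its genes. The GC content of these genes, with a median of 53.3%, was above the 48.7% of all genes tested.

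Among 21 genes for Wnt ligands and their secretion, 14 were tested, and 1 was higher and 1 lower at that p. These were 7.14% each, against 13.6% and 8.54% of all genes, and 0% and 7.14% with the trends removed, against 6.86% and 3.54%. The ligand WNT3A was at 4.12, 4.50 and 4.19 CPM in sh-NC 1, 2 and 3 and at 13.6, 9.22 and 5.79 CPM in sh-IGF2BP3 1, 2 and 3. Its groups did not overlap, with a log2 fold change of 1.16 (adjusted p = 0.103, edgeR; adjusted p = 0.0211, DESeq2) that was 0.43 with the trends removed. The ligand WNT2B had a log2 fold change of −0.86 (adjusted p = 0.157, edgeR; adjusted p = 0.096, DESeq2), or −0.56 with the trends removed, with overlapping groups in both. WLS, which carries Wnt proteins to the cell surface and was the highest of the list per length, had −0.22.

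Of 18 receptor genes, R-spondins included, 15 were tested, and 1 was higher and 3 were lower at that p. That is 6.67% and 20%, against 13.6% and 8.54% of all genes. After removal of the trends 0 were higher and 3 lower (20%), against 6.86% and 3.54% of all genes. LGR4, an R-spondin receptor related to LGR5, was at 46.2, 25.2 and 29.3 CPM in sh-NC 1, 2 and 3 and at 18.8, 17.3 and 17.4 CPM in sh-IGF2BP3 1, 2 and 3. All sh-IGF2BP3 libraries lay below all sh-NC libraries, with sh-NC 1 standing highest. The log2 fold change was −0.91 (adjusted p = 0.103, edgeR; adjusted p = 0.0253, DESeq2), and −0.67 with the trends removed, where the groups overlapped. The Frizzled receptor FZD4 had −0.99 (adjusted p = 0.136, edgeR; adjusted p = 0.0654, DESeq2), or −0.78 with the trends removed, with overlapping groups in both. The co-receptor LRP5 had 0.49 (adjusted p = 0.189, edgeR; adjusted p = 0.147, DESeq2), which was 0.03 with the trends removed.

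Of 14 antagonists 6 were tested, with 1 higher and 0 lower at that p. The shares were 16.7% and 0%, against 13.6% and 8.54% of all genes, and again 16.7% and 0% with the trends removed, against 6.86% and 3.54%. KREMEN2 takes LRP co-receptors off the surface together with DKK proteins. It had a log2 fold change of 0.86 (adjusted p = 0.136, edgeR; adjusted p = 0.0616, DESeq2) that was 0.05 with the trends removed. TPBG, a membrane protein that dampens Wnt signalling, had 0.27, and 0.48 after removal of the trends, its groups not overlapping in either case. DKK1, the secreted LRP inhibitor, was the highest antagonist per length at 106 FPKM, and its libraries ran from 131 to 374 CPM in sh-NC and from 178 to 309 CPM in sh-IGF2BP3.

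All 25 genes of the destruction complex, its kinases, its ligases and Dishevelled were tested, with 7 higher and 1 lower at that p. This was 28% and 4%, against 13.6% and 8.54% of all genes. DVL1, a Dishevelled protein that relays the signal from Frizzled, was at 142, 105 and 95.8 CPM in sh-NC 1, 2 and 3 and at 259, 208 and 139 CPM in sh-IGF2BP3 1, 2 and 3. Its log2 fold change was 0.82 (adjusted p = 0.108, edgeR; adjusted p = 0.0361, DESeq2), with a GC content of 67.2%, and 0.14 with the trends removed. AXIN1, the paralogue of AXIN2, was at 0.74 (adjusted p = 0.112, edgeR; adjusted p = 0.0476, DESeq2) without overlap, and at 0.29 with overlap after removal of the trends. With the trends removed, 2 of the 25 were higher (8%) and 1 lower (4%) at that p, against 6.86% and 3.54% of all genes.

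Of 22 nuclear partners 20 were tested, with 4 higher and 2 lower at that p (20% and 10%, against 13.6% and 8.54% of all genes). Removal of the trends left 1 higher and 1 lower, or 5% each, against 6.86% and 3.54% of all genes. The co-repressor CTBP1 was at 129, 104 and 94.3 CPM in sh-NC 1, 2 and 3 and at 213, 180 and 137 CPM in sh-IGF2BP3 1, 2 and 3. Its log2 fold change was 0.70 (adjusted p = 0.112, edgeR; adjusted p = 0.0434, DESeq2) and 0.40 with the trends removed, without overlap in both. TLE5, a short relative of the TLE co-repressors, had 0.58 (adjusted p = 0.126, edgeR; adjusted p = 0.0663, DESeq2) and 0.29, again without overlap in both. SOX4 had the highest level of the list per length, with a log2 fold change of 0.31. LEF1, a further TCF/LEF gene, and the co-repressor TLE4 had 0 counts in each library.

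Of 8 adherens junction partners of beta-catenin 6 were tested, with 0 higher and 1 lower (16.7%) at that p. Among all genes it was 13.6% and 8.54%. Removal of the trends left 0 and 1 (16.7%), against 6.86% and 3.54% of all genes. CDH1, which encodes E-cadherin, was at 163, 126 and 140 CPM in sh-NC 1, 2 and 3 and at 116, 92.4 and 101 CPM in sh-IGF2BP3 1, 2 and 3. The groups did not overlap, and the log2 fold change was −0.47 (adjusted p = 0.165, edgeR; adjusted p = 0.133, DESeq2). It was −0.39 with the trends removed, still without overlap. JUP, or plakoglobin, a close relative of beta-catenin, had 0.30 and, with the trends removed, −0.12.

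Of 27 other genes known as Wnt targets in the colon 23 were tested, with 5 higher and 3 lower at that p. These made 21.7% and 13%, against 13.6% and 8.54% of all genes. After removal of the trends 4 were higher (17.4%) and 1 lower (4.35%), against 6.86% and 3.54% of all genes. JUN, a subunit of the AP-1 factor, was at 75.4, 31.1 and 27.6 CPM in sh-NC 1, 2 and 3 and at 79.3, 150.4 and 94.6 CPM in sh-IGF2BP3 1, 2 and 3. Its log2 fold change was 1.28 (adjusted p = 0.103, edgeR; adjusted p = 0.123, DESeq2), and with the trends removed it was 1.02 and the groups overlapped. BIRC5, or survivin, was at 140, 153 and 110 CPM in sh-NC 1, 2 and 3 and at 202, 230 and 211 CPM in sh-IGF2BP3 1, 2 and 3. Its log2 fold change was 0.67 (adjusted p = 0.105, edgeR; adjusted p = 0.0317, DESeq2) and 0.56 with the trends removed, without overlap in both. CCND1, or cyclin D1, the highest of the list per length at 140 FPKM, had a log2 fold change of 0.11 (adjusted p = 0.779, edgeR; adjusted p = 0.76, DESeq2). ID3 was chosen after its values were seen because DESeq2 called it (adjusted p = 0.0289). In sh-IGF2BP3 1, 2 and 3 it was at 173, 97.1 and 58.7 CPM, the last inside the sh-NC range of 42.9 to 62.4 CPM. The log2 fold change of ID3 was 1.025 (adjusted p = 0.108, edgeR), and 0.62 with the trends removed, with overlapping groups in both.

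**Figure D5:**
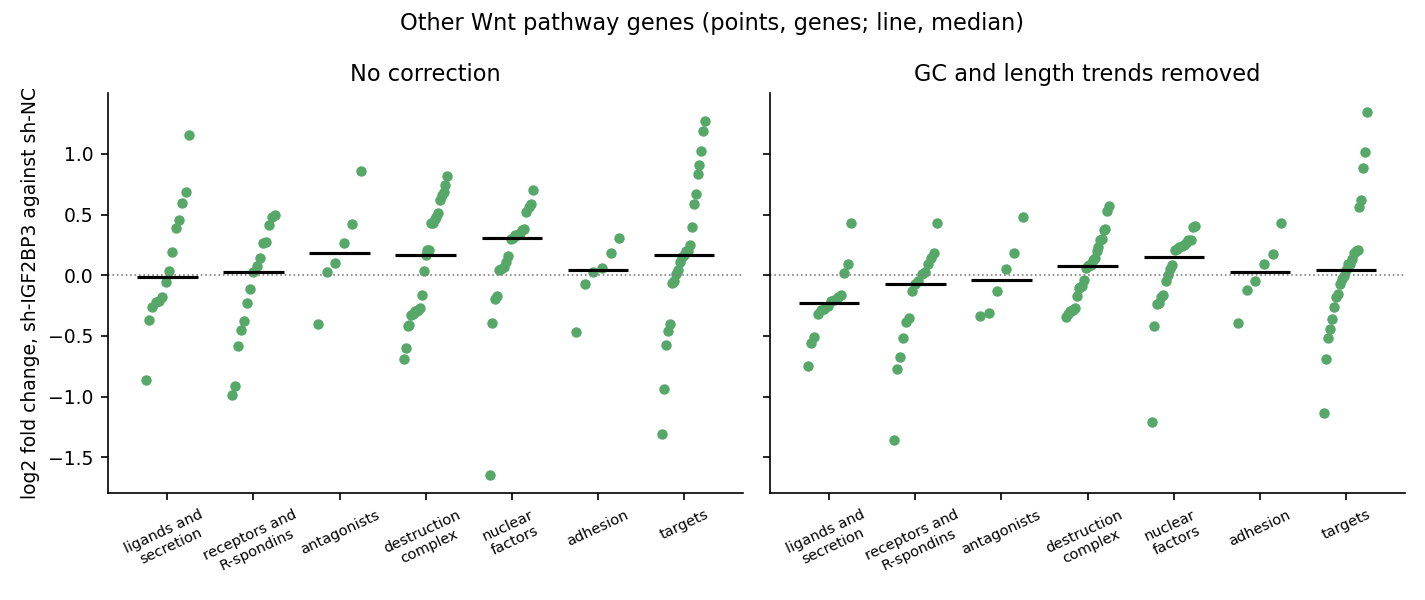
Log2 fold change, sh-IGF2BP3 against sh-NC (vertical axis), of the 109 tested genes of 7 Wnt pathway lists, without correction (left) and with the GC and length trends removed (right); points are genes, sorted within each list, and lines are list medians. The median of the nuclear partners is 0.30 on the left and 0.15 on the right.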

How the data were processed

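RNA from 3 sh-NC and 3 sh-IGF2BP3 samples of HCT116 was extracted with Trizol and made into libraries with a TruSeq RNA kit. The authors deposited whole-number counts per gene and FPKM values, which equal the same counts divided by the library total and by a fixed gene length. The submitters' processing notes name CASAVA and GRCh38, and the aligner, the counter and the use of strand are not given in the sources used here. Without strand, reads of overlapping genes cannot be told apart.

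The count test was edgeR 4.0.16 in R 4.3.3 (filterByExpr, TMM, glmQLFit, glmQLFTest, two-sided, Benjamini-Hochberg adjustment over 16753 genes), and DESeq2 1.42.0 and limma 3.58.1 on log2 FPKM were alternatives. Log2 CPM used a prior count of 2. The thresholds were a fold change of 1.5 and an adjusted p of 0.05, as in the study's methods. Trends with GC content (longest GENCODE 29 transcript, known for 96.9% of tested genes) and gene length were splines with 5 degrees of freedom per library, entered as offsets. The edgeR step was tested on simulated data of 16753 genes with 200 planted changes, each larger than 1.5-fold. It called 61% of these in the planted direction, along with 13 unchanged genes. Recovery of smaller changes was not tested. Libraries of a group differed by more than counting noise, with a chi-square of 16.6 to 52.3 per degree of freedom.

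Members, pathway lists and tests were chosen with earlier results of these data known. The rule named every member, the shRNA target, from each pathway list the pair of tested genes with the smallest unadjusted p and the gene with the highest mean FPKM, and the 3 genes nearest to AXIN2, ASCL2 and TCF7L2.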

Additional observations from a re-analysis of the deposited data

How the results depend on the processing

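With 3 libraries a group, the results are limited by the spread between libraries and by the trend with GC content. DESeq2, RLE normalization and at least 10 counts in every library left the counts of members as reported, with 1 member not overlapping where 15%, 23.9% and 24.9% of all genes tested did not. Where a value changed, the cause was not tested.

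Upper-quartile normalization gave 2 members at an unadjusted p under 0.05 (APC and NKD1) and 2 whose groups did not overlap, against 22.6% and 24.4% of all genes. No filter on low counts gave 1 and 2, against 13% and 14.5%. limma on log2(FPKM + 1), on log2(FPKM + 0.1) and on log2(FPKM + 1) without a filter gave 1 and 2 each, with APC past that p and RNF43 at −0.002, against 22.8%, 22.9% and 10.5% of all genes at that p and 27.2%, 27.2% and 15% without overlap. With the trends in GC content and length removed, 0 members did not overlap, against 15.1% of all genes, the median of the members was 0.103, 16 other pathway genes (14.7%) were at an unadjusted p under 0.05, against 10.4% of all genes, and CTNNB1 and TCF7L2 turned to 0.11 and 0.16.

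The study describes the samples as pairs, but the sources used here do not say what the libraries of a pair share or that equal numbers mark a pair. The deviations of same-numbered libraries correlated at −0.284, −0.186 and −0.043, and those of the other pairings at −0.258 to 0.323. With 3 libraries a group, such values cannot decide whether equal numbers mark a pair. The main fit did not take the numbers as pairs. With the replicate block, 0 members and 0 of all genes were called, 1 member did not overlap, against 24.2% of all genes, the median was −0.02, and 29 other pathway genes (26.6%) were at an unadjusted p under 0.05, against 19.5% of all genes. With the block and the trends removed, 0 members did not overlap, against 15.1% of all genes, the median was 0.117, 9 other pathway genes (8.26%) were at that p, against 7.1% of all genes, and CTNNB1 and TCF7L2 were at 0.138 and 0.169.

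Leaving out each library, with the trends kept or, added after seeing the data, removed, gave 0 to 1 members called, 0 to 2 at an unadjusted p under 0.05, 0 to 4 without overlap, a median of −0.099 to 0.15, and 4 to 40 other pathway genes at that p (3.64% and 36.4%, against 3.65% and 31.8% of all genes in those settings). With the trends kept, 3 members did not overlap when sh-NC 1 or sh-NC 3 was left out and 4 when sh-IGF2BP3 3 was, in settings where 49.5%, 29.3% and 43% of all genes tested did not overlap, against 24.2% with all libraries. With the trends removed, 4 did not overlap without sh-NC 1 and 2 without sh-IGF2BP3 1, against 42% and 27.9% of all genes. The other pathway genes at that p numbered 40, 18 and 19 when sh-NC 1, 2 and 3 were left out and 18 when sh-IGF2BP3 2 was, with the trends kept, or 36.4%, 16.4%, 17.4% and 16.4%, against 31.8%, 11.1%, 11.4% and 11.3% of all genes. The members at that p numbered 2 without sh-IGF2BP3 3, against 24.7% of all genes. Log2 fold changes ran from −0.304 to 0.334 for CTNNB1, −0.624 to 0.105 for APC, −0.22 to 0.146 for ZNRF3 and −0.088 to 0.293 for TCF7L2. In all 23 alternatives AXIN2 and TCF7 stayed above 0, at 0.159 to 0.543 and 0.081 to 0.348, and NKD1 stayed below 0, at −0.935 to −0.294. The log2 ratio of TCF7L2 to TCF7 differed by −0.347 to −0.256 in the 8 alternatives that keep the trends, and by −0.04 with the trends removed, where the groups overlapped.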

Other observations

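Markers of the colon epithelium that belong to no pathway list varied between the libraries. KRT19, a keratin of simple epithelia, was at 546, 370 and 288 CPM in sh-NC 1, 2 and 3 and at 823, 786 and 487 CPM in sh-IGF2BP3 1, 2 and 3 (log2 fold change 0.80, adjusted p = 0.121, edgeR). The highest sh-NC library, sh-NC 1, exceeded sh-IGF2BP3 3. CDX2, a transcription factor of the intestinal epithelium, was at 16.5, 11.4 and 10.9 CPM in sh-NC 1, 2 and 3 and at 23.8, 19.8 and 14.9 CPM in sh-IGF2BP3 1, 2 and 3 (log2 fold change 0.59, adjusted p = 0.189, edgeR). For CDX2 too, sh-NC 1 exceeded sh-IGF2BP3 3. EPCAM, an epithelial adhesion molecule, ran from 163 to 241 CPM in sh-NC and from 165 to 206 CPM in sh-IGF2BP3 (log2 fold change −0.10, adjusted p = 0.786, edgeR). KRT19, CDX2 and EPCAM were chosen after their values were seen. The other tested markers, KRT8, KRT18 and KRT20, had log2 fold changes of 0.51, 0.26 and 0.09 (adjusted p = 0.22, 0.586 and 0.903, edgeR), with overlapping groups. These marker values are given with the trends kept.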
